A study of Mus musculus with 78 samples.

Results

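The genes described here are 36 genes of sterol and fatty acid synthesis, picked by gene symbol from 20673 genes in a table of RNA sequencing values. By role they comprised 7 enzymes of the mevalonate steps (Acat2, Hmgcs1, Mvk, Pmvk, Mvd, Idi1, Fdps) and 11 enzymes from squalene to cholesterol (Fdft1, Sqle, Lss, Cyp51, Tm7sf2, Msmo1, Nsdhl, Hsd17b7, Ebp, Sc5d, Dhcr7). A further 6 code for regulators and a sterol carrier (Srebf1, Srebf2, Scap, Insig1, Insig2, Stard4), 5 for fatty acid synthesis (Acly, Acss2, Acaca, Fasn, Me1) and 6 for desaturases and elongases (Scd1, Scd2, Elovl6, Elovl5, Fads1, Fads2). The last, Gpam, starts glycerolipid synthesis. Each of the 36 stood on 1 row of the table. All 36 passed the filter for testing, a mean of at least 0.5 FPKM, in each of 4 tissues, and the lowest single value was 1.72 FPKM (Idi1 in 1 hippocampus library).

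The study asked how disruption of the light cycle changes gene expression in the gut and brain of young and old C57BL/6 mice. Control mice (CON) lived with 12 h of light and 12 h of darkness. Mice under circadian rhythm disruption (CRD) had light and dark swapped every 3 days over 4 weeks, then 3 weeks in which 48 h of light alternated with 48 h of dark, and finally 1 week of constant light. Labels give ages of 8 weeks and 18 months, and because the disruption itself lasted for weeks the first cannot be read as the age of CRD mice at collection. Food was freely available in both schedules. At 8 weeks every group consisted of 5 libraries, apart from colon CON with 4. At 18 months CON was sequenced in 4 libraries per tissue, or 5 for colon, and CRD in 4 from each gut tissue and 5 from each brain region. The blood cell libraries of the series were not used here.

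Cholesterol is built from acetyl-CoA through mevalonate, farnesyl diphosphate, squalene and a series of sterol intermediates. When membrane sterol falls, Scap carries the SREBP precursors out of the endoplasmic reticulum, where the Insig proteins otherwise hold them. The released factors bind sterol regulatory elements, with SREBP-2 acting mainly on sterol genes and SREBP-1 mainly on fatty acid genes. Fatty acid synthesis draws on cytosolic acetyl-CoA and NADPH, and desaturases and elongases then set chain length and the number of double bonds. The brain makes its own cholesterol because lipoproteins do not cross the blood-brain barrier, and glia are its main producers in adults.

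Values were FPKM, so absolute depth was unknown. In the 74 libraries of these tissues FPKM summed to 430706 to 590745, genes above 0 numbered 16960 to 17753, and a relative depth read from the steps between low values ran from 0.909 to 1.06. The tissue labels were checked with markers. All 10 gut epithelium markers were lower and all 8 neuron markers higher in brain than in gut. The labels do not give sex. The Y-linked gene Ddx3y lay at 9.2 to 24.7 FPKM in every 8-week library and at 0 to 0.06 FPKM in every 18-month library except colon 18-month CON replicate 5, at 11.3 FPKM. Age and sex-linked expression thus cannot be told apart. In the hippocampus 4 libraries, all CRD (18 months replicates 1 and 4, 8 weeks replicates 2 and 4), held 35.5 to 86.4 FPKM of the choroid plexus gene Ttr against 3000 to 12211 FPKM in the others. Whether every library came from its own mouse is not stated in the labels, and a p-value therefore reflects library-to-library spread, which may be technical. In bulk tissue, fewer cells of a type and less RNA per cell cannot be told apart.

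Promoter sequences are shown for 5 members that recur below, so that the letters of the motifs named here can be seen. RefSeq promoters (GRCm38.p6) matched 29 of the 36 genes, and start sites are those of that set. GENCODE, used for gene coordinates, puts the outer start of Msmo1 at chr8:64733792 and of Insig1 at chr5:28071363. Both lie inside the windows shown. Each run is the 250 bases before the annotated start, 5′ to 3′ on the strand of the gene, with capitals marking matches to a sterol regulatory element (TCACNCCAC), a CCAAT box (CCAAT, or ATTGG where it lies on the other strand) or an E-box (CACGTG).
Hmgcs1 (chr13:119690101-119690350, plus strand): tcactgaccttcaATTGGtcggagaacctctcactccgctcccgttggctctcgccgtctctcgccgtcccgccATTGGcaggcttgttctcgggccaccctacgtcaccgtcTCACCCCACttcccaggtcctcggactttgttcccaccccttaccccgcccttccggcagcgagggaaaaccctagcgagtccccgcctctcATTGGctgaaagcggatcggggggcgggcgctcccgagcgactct
Msmo1 (chr8:64733579-64733828, minus strand): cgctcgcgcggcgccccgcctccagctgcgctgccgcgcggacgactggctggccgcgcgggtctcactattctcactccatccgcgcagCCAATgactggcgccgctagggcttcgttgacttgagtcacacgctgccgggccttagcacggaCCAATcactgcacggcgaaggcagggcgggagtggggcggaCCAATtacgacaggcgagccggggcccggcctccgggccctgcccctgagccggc
Ebp (chrX:8193513-8193762, minus strand): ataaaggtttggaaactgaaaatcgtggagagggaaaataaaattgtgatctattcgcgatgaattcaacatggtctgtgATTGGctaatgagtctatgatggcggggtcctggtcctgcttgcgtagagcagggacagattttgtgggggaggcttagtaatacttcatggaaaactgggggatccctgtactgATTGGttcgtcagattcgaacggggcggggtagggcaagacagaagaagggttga
Insig1 (chr5:28071162-28071411, plus strand): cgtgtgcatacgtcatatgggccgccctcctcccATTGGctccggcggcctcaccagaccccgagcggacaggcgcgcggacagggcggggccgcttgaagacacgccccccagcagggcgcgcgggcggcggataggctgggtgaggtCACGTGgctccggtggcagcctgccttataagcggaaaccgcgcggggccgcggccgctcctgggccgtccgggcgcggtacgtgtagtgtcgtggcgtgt
Gpam (chr19:55127239-55127488, minus strand): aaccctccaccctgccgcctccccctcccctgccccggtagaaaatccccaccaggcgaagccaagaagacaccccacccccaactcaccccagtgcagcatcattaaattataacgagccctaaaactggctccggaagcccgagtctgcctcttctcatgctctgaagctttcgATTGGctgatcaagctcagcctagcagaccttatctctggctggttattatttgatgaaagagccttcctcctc

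Hmgcs1 was the single member with a match to the sterol regulatory element, starting 137 bases before its start site, which made 3.45% of the matched members against 1.22% of 27025 genes with promoters of this length. CCAAT boxes stood in 23 of 29 members (79.3%, against 37.5% of all genes). Msmo1 held 3 of them, 160, 96 and 55 bases before the start, and Ebp held 2, at 170 and 55 bases. E-boxes stood in 6 of 29 members, 20.7% against 6.86% of all genes. These were Dhcr7, Elovl5, Hsd17b7, Insig1, Sc5d and Scap. Gpam held a single CCAAT box, 74 bases before its start. The search covered both strands, and 1 pair of matches overlapped, in Fasn. A match describes letters in this window and shows no binding.

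Levels of the members differed by tissue. In the gut the most abundant members were the sterol enzyme Msmo1, an oxidase of methylsterols, at 119.9 ± 28.4 FPKM in the cecum and 125 ± 35.1 FPKM in the colon (mean ± SD, n = 18 libraries each). Scd2, a stearoyl-CoA desaturase, followed at 93.9 ± 29.4 and 105 ± 28.9 FPKM, and then Fdps, which makes farnesyl diphosphate, at 91.8 ± 19.2 and 98.04 ± 29.02 FPKM. In both gut tissues the order of these 3 was the same, but their SDs overlapped. In the hippocampus Scd2 led at 264 ± 37.3 FPKM (n = 19), ahead of the polyunsaturated fatty acid desaturases Fads1 at 104 ± 10.7 and Fads2 at 104 ± 25.7 FPKM, which did not differ beyond their spread. In the hypothalamus Scd2 stood at 430.5 ± 62.9 FPKM (n = 19), above Fads2 at 152 ± 21.8 and Scd1, the paralog of Scd2, at 125 ± 27.9 FPKM. The deposited values do not say how reads shared by Scd1 and Scd2 were divided, so either is uncertain alone. The same holds for Fdps and Tm7sf2, which share 26.7% and 12.1% of their exon bases with a gene on the same strand.

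**Figure D1:**
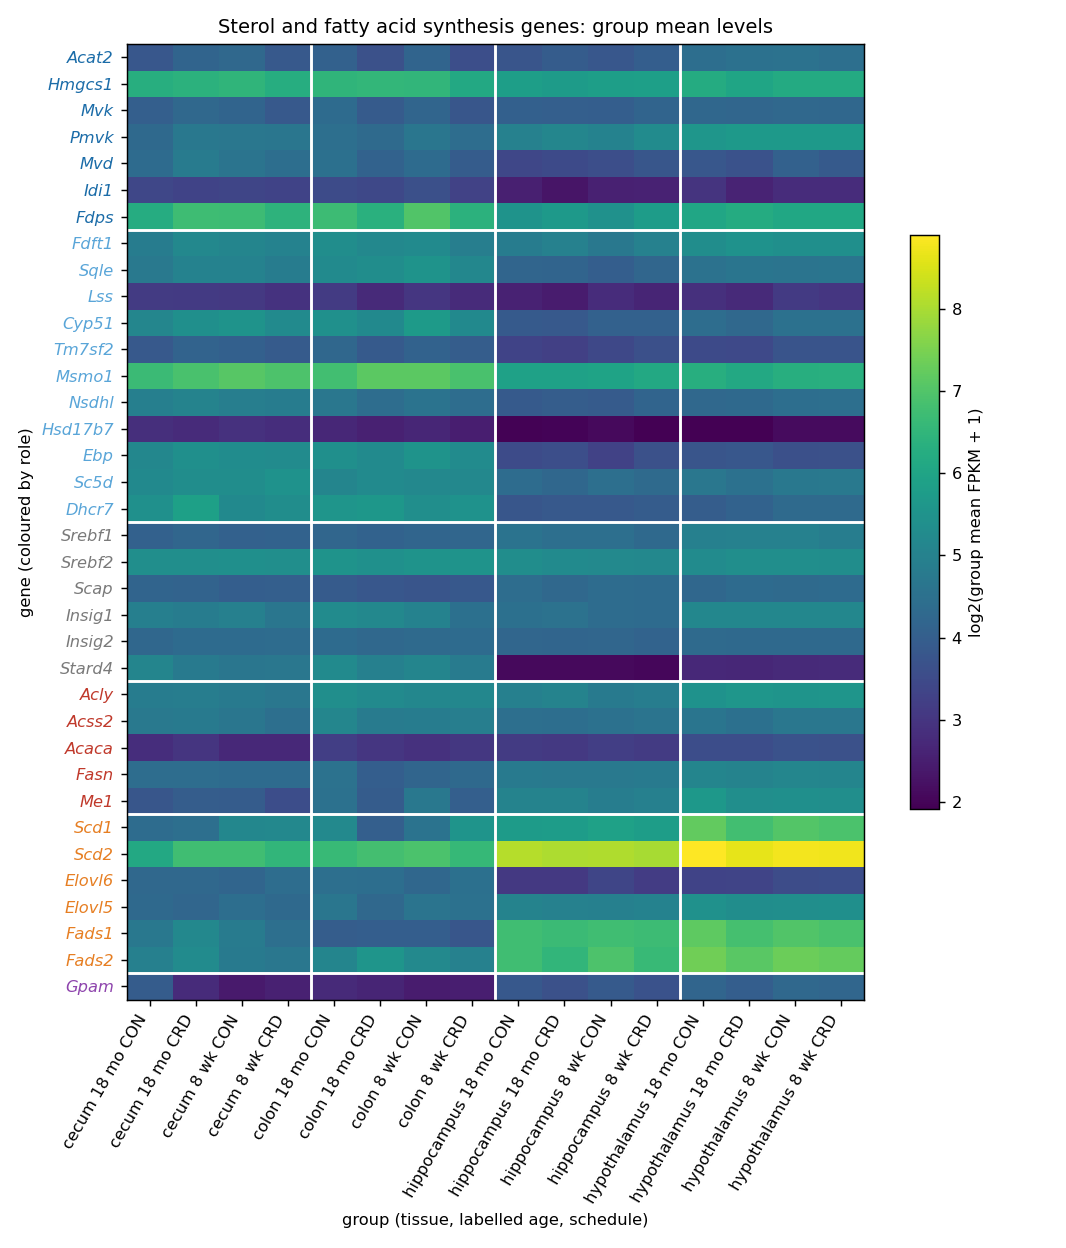
Mean level of each of the 36 genes (rows, grouped by role) in each of the 16 groups (columns, 4 to 5 libraries each), coloured by log2(group mean FPKM + 1). Scd2, Fads1 and Fads2 are brightest in the brain columns, while Hsd17b7 and Stard4 are lowest there, at 3.01 and 3.24 FPKM on average in the hippocampus.

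At the low end was Hsd17b7, a keto reductase of the sterol branch, at 6.22 ± 1.43 FPKM in the cecum, 5.14 ± 0.976 in the colon, 3.01 ± 0.409 in the hippocampus and 3.10 ± 0.434 in the hypothalamus. Also low in the cecum were Acaca, which makes malonyl-CoA, at 6.03 ± 0.992 FPKM and Gpam at 7.14 ± 4.82 FPKM. In the colon Gpam was lowest of all at 5.05 ± 0.931 FPKM, with Lss, the lanosterol synthase, at 6.68 ± 1.68 FPKM. In the brain the low end was formed by Stard4, a soluble sterol carrier, and Idi1, which isomerises isopentenyl diphosphate. Hippocampus libraries averaged 3.24 ± 0.414 FPKM of Stard4 and hypothalamus libraries 5.71 ± 0.547 FPKM, with Idi1 at 4.67 ± 1.61 and 5.96 ± 1.23 FPKM.

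Set against the gut, the brain of CON mice had less message for most sterol enzymes and more for most desaturases and fatty acid enzymes. The comparison took 18 CON libraries of the hippocampus and hypothalamus against 18 of the cecum and colon, in 1 limma fit over all genes of log2(FPKM + 1), with a call at an adjusted p under 0.05. Of the 36 members, 32 were called, 13 higher and 19 lower in brain. Nearly all genes differed between these organs, 92.8% of 15419 tested (51% higher and 41.7% lower), so the direction and size carry more than the count. Among 18 sterol enzymes 14 were lower and 1 was higher, with a median log2 difference of -0.68. Among 12 fatty acid and glycerolipid enzymes 10 were higher and 2 lower, with a median of 0.88. The median over all genes was 0.14.

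The desaturases had the largest excess in brain. Fads1, at chr19:10182888-10196877 on chromosome 19 (GRCm38, plus strand), had a lowest, median and highest value of 19.4, 24.1 and 36.3 FPKM in CON cecum, 12.04, 13.9 and 19.2 in colon, 96.1, 107 and 118 in hippocampus and 104, 140.4 and 161 in hypothalamus (n = 9 each). No brain library overlapped a gut library, and the log2 difference was 2.56 ± 0.08 (SE), or 5.90-fold on this scale. Fads2, its neighbour at chr19:10062765-10101746 on the minus strand, ran from 17.1 to 39.96 FPKM in cecum and 21.7 to 50.6 in colon to 92.96 to 129 in hippocampus and 133 to 201 in hypothalamus, a difference of 2.13 ± 0.11. Scd2 at 1.88 ± 0.09 and Scd1 at 1.73 ± 0.15, which lie close together on chromosome 19, were also higher. Scd1 shows that the excess was uneven. It spanned 18.2 to 48.3 FPKM in cecum and 11.6 to 61.9 in colon, which overlapped the 45.2 to 64.96 FPKM of the hippocampus but not the 99.9 to 181 FPKM of the hypothalamus. In all, 6 members lie on chromosome 19, and of these Tm7sf2, a sterol reductase, moved the other way at -0.57 ± 0.05.

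**Figure D2:**
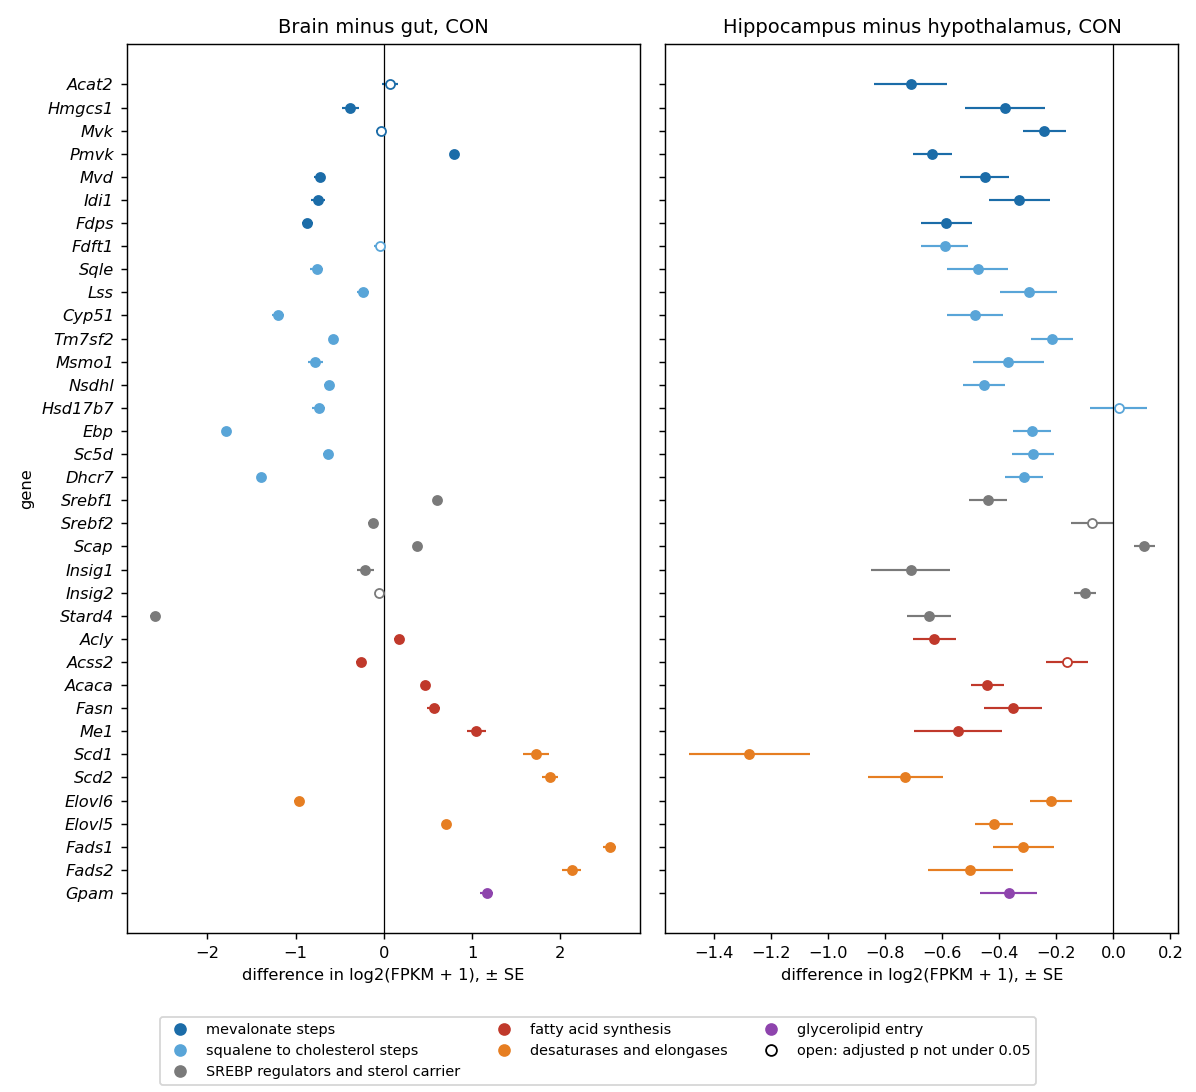
Differences in log2(FPKM + 1) ± SE of the 36 genes (rows, coloured by role) between CON libraries. Panels show brain against gut and hippocampus against hypothalamus, with filled points for called genes. In the first panel Fads1 (2.56) and Stard4 (-2.60) mark the ends, and in the second 32 called genes lie left of 0.

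Other enzymes of fat synthesis were higher in brain by less. Gpam differed by 1.16 ± 0.07, with 11.9 to 15.5 FPKM in hippocampus and 14.9 to 21.8 in hypothalamus against 3.68 to 7.23 in colon and 3.73 to 19.5 in cecum, where 3 of the 18-month libraries overlapped the brain range. Me1, a malic enzyme that yields NADPH, differed by 1.05 ± 0.11, the elongase Elovl5 by 0.70 ± 0.05, the synthase Fasn by 0.57 ± 0.07 and Acaca by 0.47 ± 0.04. Acly, which splits citrate to acetyl-CoA, was called at 0.17, but this turned to -0.0083 when libraries were scaled by the median of ratios. That scaling moved the median of all genes from 0.14 to -0.008, a shift of about 0.15 against which all these differences can be read. The exceptions in this branch were Elovl6, which extends palmitate, at -0.97 ± 0.05, and Acss2, which makes acetyl-CoA from acetate, at -0.26.

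The sterol branch was lower in brain at both its early and its late steps. Ebp, the sterol isomerase encoded at chrX:8185329-8193512, had a lowest, median and highest value of 34.2, 35.4 and 40.7 FPKM in cecum and 33.8, 41.3 and 52.9 in colon, against 8.31, 9.38 and 11.2 in hippocampus and 10.03, 11.8 and 14.2 in hypothalamus. The ranges did not meet, and the difference was -1.78 ± 0.05, 3.44-fold lower. Dhcr7, the reductase that yields cholesterol itself (chr7:143823145-143848410), went from 30.3 to 51.7 and 36.8 to 54.1 FPKM in the gut tissues to 12.7 to 14.1 and 13.8 to 20.6 FPKM in the brain regions, a difference of -1.39 ± 0.05. Cyp51, the lanosterol demethylase, differed by -1.19 ± 0.07. Smaller differences in the same direction were called for Fdps at -0.87, Msmo1 at -0.78, the squalene epoxidase Sqle at -0.76, Idi1 at -0.75, Hsd17b7 at -0.74 and the mevalonate diphosphate decarboxylase Mvd at -0.73. The desaturase Sc5d (-0.63), the dehydrogenase Nsdhl (-0.63), Tm7sf2, the HMG-CoA synthase Hmgcs1 (-0.38) and Lss (-0.24) completed the 14.

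Pmvk, a kinase of the mevalonate steps (chr3:89454541-89469013), was the sterol enzyme that went the other way, at 0.80 ± 0.05. Its lowest, median and highest values were 17.7, 20.9 and 29.2 FPKM in cecum, 15.4, 23.7 and 27.7 in colon, 28.6, 31.1 and 33.97 in hippocampus and 45.3, 48.5 and 53.4 in hypothalamus. The highest cecum library exceeded the lowest hippocampus library, while the hypothalamus stood clear of all gut libraries. Not called were Mvk, the kinase before it, at -0.04 (95% interval -0.14 to 0.07), the squalene synthase Fdft1 at -0.05 (-0.16 to 0.07) and the thiolase Acat2 at 0.07 (-0.11 to 0.25).

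Among regulators the carrier Stard4 had the largest difference of all members, -2.60 ± 0.05 (adjusted p = 1.61e-30), 6.05-fold lower. It lay at 19.2 to 35.7 FPKM in cecum and 24.1 to 41.96 in colon, and at 2.78 to 3.93 in hippocampus and 4.94 to 6.59 in hypothalamus, with no overlap between gut and brain. The message for the SREBP-1 precursor, Srebf1, was higher in brain at 0.60 ± 0.05 and that for the escort Scap at 0.38 ± 0.03, while Srebf2, coding for the SREBP-2 precursor, was lower at -0.13 ± 0.05. The retention proteins differed little. Insig1 was at -0.21 ± 0.10 (adjusted p = 0.0431), which became 0.096 in CRD libraries, and Insig2 was not called at -0.05 (95% interval -0.10 to 0.01). In CRD libraries 33 members were called, against 91.2% of all genes, and 30 of them were called with the same sign in CON. The levels compared here are set by organ, and the share of each cell type in them was not measured.

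Within the brain nearly every member was lower in the hippocampus than in the hypothalamus. Of 36 members 32 were called lower and 1 higher, against 35.7% and 20.7% of all genes (56.4% in either direction). The median over the members was -0.40, against -0.06 over all genes. The largest difference was in Scd1, at -1.28 ± 0.21, whose CON libraries spanned 45.2 to 64.96 FPKM in hippocampus and 99.9 to 181 in hypothalamus. The ranges did not overlap. Pmvk had the smallest adjusted p (1.23e-09), with a lowest, median and highest value of 28.6, 31.1 and 33.97 FPKM against 45.3, 48.5 and 53.4 FPKM and a difference of -0.64 ± 0.07.

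Separated ranges were also found for Acly at 22.5 to 32.9 FPKM in hippocampus and 38.4 to 52.8 in hypothalamus (-0.63 ± 0.08), for Fdft1 at 22.1 to 29.2 and 37.5 to 45.8 (-0.59 ± 0.08), for Insig1 at 18.9 to 22.99 and 30.5 to 38.3 (-0.71 ± 0.14) and for Stard4 (-0.65 ± 0.08). Acat2 differed by -0.71 ± 0.13, but its ranges of 10.6 to 20.2 and 17.9 to 29.95 FPKM overlapped. Scd2 at -0.73 ± 0.13 and Fdps at -0.59 ± 0.09 were lower as well. Scap alone was called higher, at 0.11 ± 0.04, and it stood at -0.06 in CRD libraries. Srebf2, Hsd17b7 and Acss2 (adjusted p = 0.0588) were not called.

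This gap was smaller under another scaling. Median-of-ratios scaling called 23 members in place of 33 and changed the split of all called genes from 3189 higher and 5512 lower to 4011 higher and 4257 lower. In CRD libraries 23 members were called, all 23 also called with the same sign in CON, against 53.4% of all genes, with a median of -0.36. Choroid plexus markers moved with this comparison, 8 of 8 being higher in the hippocampus with a median of 3.73. Summed oligodendrocyte markers ran from 3324 to 4332 FPKM in CON hippocampus and from 3217 to 5627 in CON hypothalamus. Their part in the differences was not tested between the regions.

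Between the gut tissues fewer members differed, and 5 of the differences lay on the other side of 0 in CRD libraries. In CON libraries 16 members were called between cecum and colon, 4 higher and 12 lower in the cecum, against 48.8% of all genes (24.6% higher, 24.3% lower). The clearest was Fads1, whose lowest, median and highest values were 19.4, 24.1 and 36.3 FPKM in cecum and 12.04, 13.9 and 19.2 in colon. The lowest cecum library, at 19.4 FPKM, stood just above the highest colon library, at 19.2 FPKM, so the groups did not overlap. The difference was 0.77 ± 0.11. Gpam was higher in cecum at 0.57 ± 0.10, followed by Nsdhl at 0.29 and Scap at 0.26.

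Lower in cecum were Me1 at -0.64 ± 0.15, with 11.2 to 17.7 FPKM in cecum and an overlapping 12.1 to 39.2 FPKM in colon, Sqle at -0.50 and Acly at -0.45 ± 0.08. The others lower were Fdps (-0.37), Fdft1 (-0.31), Acss2 (-0.31), Stard4 (-0.30), Acaca (-0.29), Elovl5 (-0.25), Cyp51 (-0.25), Ebp (-0.20) and Tm7sf2 (-0.20). In CRD libraries 10 members were called, 7 higher and 3 lower in the cecum, against 48.9% of all genes. Of these, 5 were also called in CON with the same sign, and 24 of all 36 members kept their sign in CRD libraries. There Fdps stood at 0.24, Cyp51 at 0.14, Tm7sf2 at 0.12, Fdft1 at 0.09 and Ebp at 0.07, on the other side of 0. Fat tissue markers were lower in cecum in 6 of 8 tested, with a median of -1.96. With the replicate number as a block, which treats same-numbered libraries as pairs, 17 members were called and Cyp51 was not, at -0.22.

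The design asks what CRD changed in each tissue. No member passed the test for CRD against CON in any of the 4 tissues at either age, or for the difference of that effect between ages. Few genes of any kind did. The calls over all genes were 0.0291% in the cecum at 18 months, 0.00727% at 8 weeks and 0.0364% for the difference of effects. In the colon they were 0.54%, 0.0142% and 0.37%. In the hippocampus they were 0%, 0% and 0.021%, and in the hypothalamus 0.0277%, 0% and 0.0485%. At an unadjusted p under 0.05 by limma the members of 36 numbered 12, 3 and 11 in the cecum, in the same order, where 16.3%, 5.16% and 15.6% of all genes had such a p. In the colon they numbered 6, 6 and 1, against 17.8%, 6.92% and 10.5% of all genes. In the hippocampus they numbered 0, 8 and 2, against 5.23%, 20.6% and 2.54%, and in the hypothalamus 9, 1 and 2, against 12.1%, 1.41% and 5.73%. Several of these counts, such as 6 in the colon at 18 months and 8 in the hippocampus at 8 weeks, are close to the share of all genes. The values below are therefore descriptions of the members with the smallest p, with their errors.

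**Figure D3:**
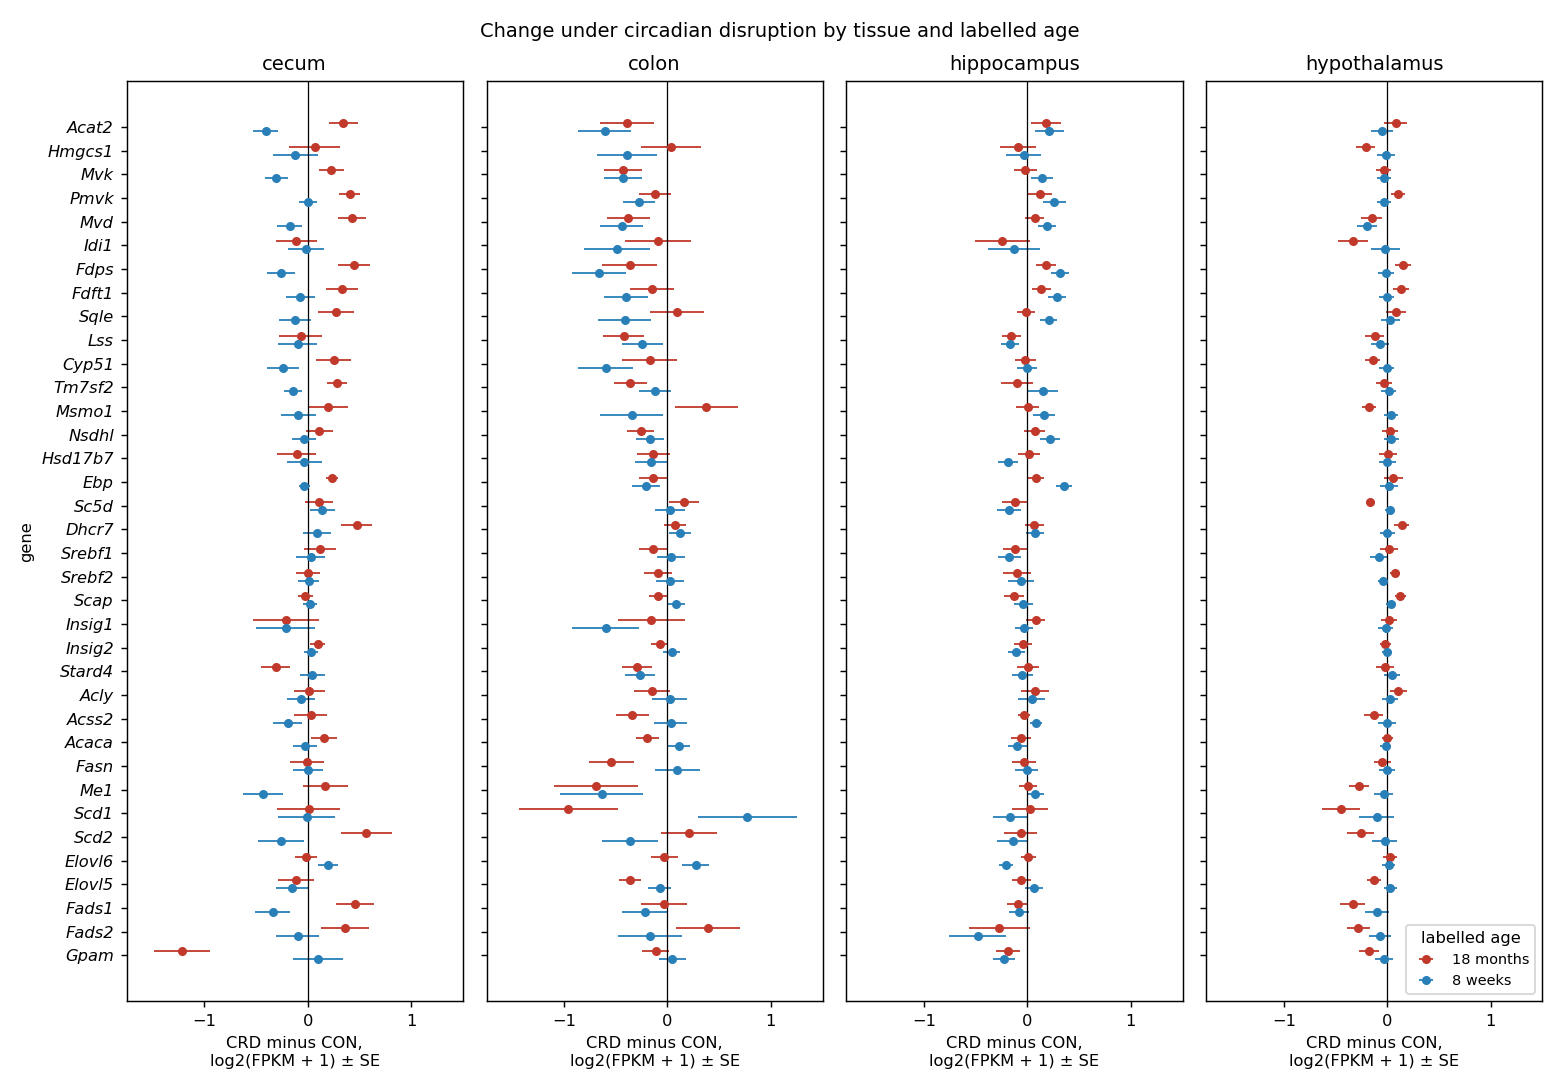
Difference of CRD against CON in log2(FPKM + 1) ± SE for each of the 36 genes (rows), in 4 tissues (panels) at 18 months and 8 weeks (colours). Gpam in the cecum at 18 months lies at -1.21, and no gene shown passed an adjusted p of 0.05.

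In the cecum at 18 months the sterol enzymes lay mostly above CON and Gpam well below it. Of 18 sterol enzymes 15 were higher, with a median of 0.24, where 31.2% of all genes were higher and their median was -0.10. Pmvk had 17.7, 19.2, 19.6 and 18.6 FPKM in CON and 27.6, 23.7, 25.3 and 24.2 in CRD. Ebp had 34.9, 34.3, 34.2 and 34.97 FPKM in CON and 42.6, 38.8, 41.7 and 40.7 in CRD. In neither gene did the groups overlap, yet the differences of 0.41 ± 0.10 (adjusted p = 0.134) and 0.24 ± 0.06 (adjusted p = 0.162) did not pass over all genes. Median-of-ratios scaling shifted the median of all genes by 0.11 in this comparison and left Ebp at 0.36. Adipocyte markers and relative depth moved with this contrast. Of 10 adipocyte markers 6 averaged at least 0.5 FPKM in CON and 8 in CRD, Plin1 and Lep being under 0.1 FPKM in every CON library. Their sums were 36.6 to 69.5 FPKM in CON (median 39.0) and 46.8 to 88.0 FPKM in CRD (median 76.0). Relative depth was 0.965 to 0.985 in CON and 1.00 to 1.06 in CRD, with no overlap, and the part of depth in the differences was not tested. With the marker score as a covariate Ebp stood at 0.24 (adjusted p = 0.334).

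Gpam, the acyltransferase that opens glycerolipid synthesis (chr19:55067268-55127238, minus strand), was the member with the smallest p here. Its CON libraries read 16.04, 19.5, 8.31 and 14.5 FPKM and its CRD libraries 6.41, 10.1, 3.23 and 3.97 FPKM. A single CRD library, replicate 3, reached into the CON range, above the CON value of 8.31. The difference was -1.21 ± 0.27 (adjusted p = 0.111), and it passed at -1.48 (adjusted p = 0.0280) without that library. Over 18 fits that each left out 1 library it ran from -1.48 to -1.01, with adjusted p from 0.0280 to 0.430. At 8 weeks the values were 4.71, 4.10, 3.73, 5.15 and 4.28 FPKM in CON and 4.06, 6.99, 4.12, 5.54 and 3.72 FPKM in CRD, which overlapped. The effects at the 2 ages differed by -1.32 ± 0.36 (adjusted p = 0.156). With the adipocyte marker score as a covariate the 18-month difference was -1.37 (adjusted p = 0.145).

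**Figure D4:**
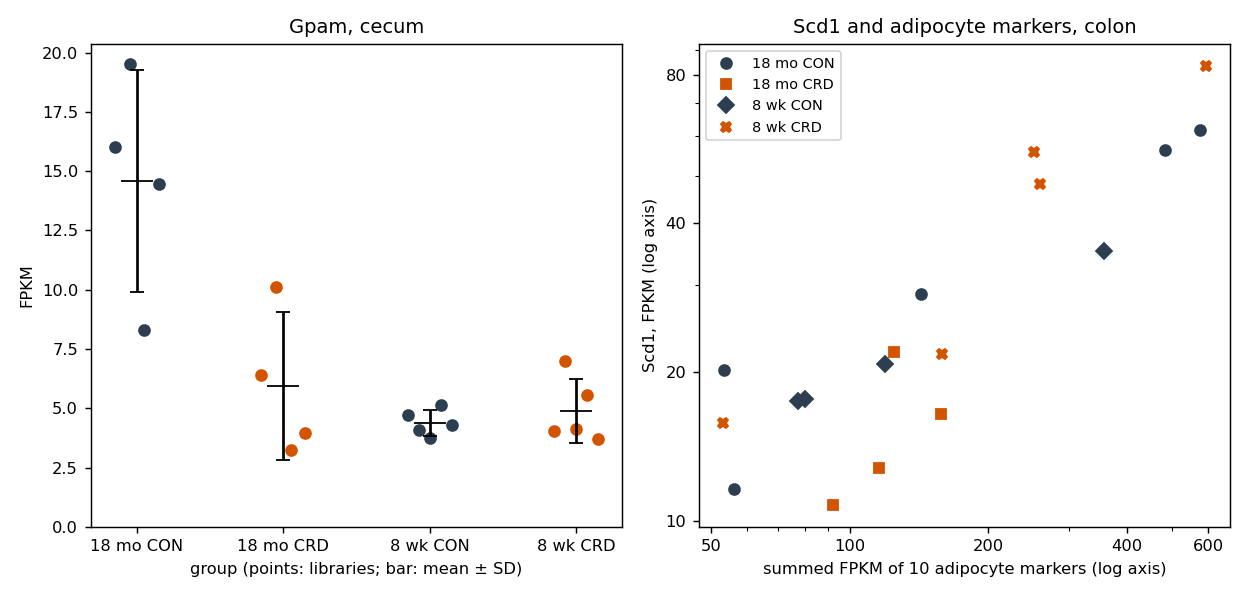
Left, FPKM of Gpam in every cecum library by group, with mean ± SD as bars. Right, FPKM of Scd1 against the summed FPKM of 10 adipocyte markers in the 18 colon libraries, both on log axes. The 18-month CON libraries hold the 3 highest Gpam values, 14.5 to 19.5 FPKM, and Scd1 is highest (83.4 FPKM) in the library with the highest marker sum (595 FPKM).

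At 8 weeks most sterol enzymes in the cecum leaned the other way. Of the 18 sterol enzymes 15 were lower in CRD, with a median of -0.09 against 0.02 over all genes. The mean of log2(FPKM + 1) over them was 4.66 to 5.18 in CON and 4.67 to 4.83 in CRD. The medians were 4.73 and 4.74, and only CON replicates 2 (5.18) and 5 (4.99) lay above the CRD range. Acat2, which joins acetyl units, had 20.04, 15.1, 14.6, 22.3 and 19.8 FPKM in CON and 13.3, 15.4, 12.8, 14.3 and 11.7 in CRD at 8 weeks, a difference of -0.41 (adjusted p = 0.795), with overlapping groups. At 18 months it had 14.1, 12.7, 13.5 and 11.7 FPKM in CON and 21.3, 15.4, 17.2 and 13.95 in CRD, where the groups overlapped by a narrow margin. The difference of the effects was 0.75 ± 0.19 (adjusted p = 0.117), and for Fdps it was 0.71 ± 0.21 (adjusted p = 0.166). Over the members 25 of 36 had opposite signs at the 2 ages, which rest on separate libraries. Mvk at -0.30 and Me1 at -0.43 were the next smallest in p at 8 weeks. Gut immune markers, 10 of 10 detected in each cecum group at a mean of at least 0.5 FPKM, moved with the 8-week contrast, summing to 2292 to 3462 FPKM in CRD and 797 to 3004 FPKM in CON, and their part was not tested.

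In the colon most members lay below CON in CRD mice. At 18 months 29 of 36 were lower, with a median of -0.15 against -0.04 over all genes. Elovl5 had 23.8, 22.3, 20.5, 29.5 and 24.6 FPKM in CON and 18.9, 15.7, 18.4 and 20.96 in CRD. Its groups overlapped through a single CON library at 20.5 FPKM, and the difference was -0.36 ± 0.11 (adjusted p = 0.112). Fasn had 26.02, 22.2, 29.97, 15.9 and 18.97 FPKM in CON and 19.4, 15.4, 15.1 and 10.6 in CRD, overlapping, at -0.54 ± 0.22 (adjusted p = 0.203), and Mvk stood at -0.43 ± 0.18. Immune markers summed to 1201 to 2354 FPKM in CON and 555 to 1425 in CRD at this age, and their part was not tested.

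At 8 weeks 16 of 18 sterol enzymes in the colon were lower in CRD, with a median of -0.37 where that of all genes was 0.06. Fdps had 116, 131, 139 and 122 FPKM in CON and 77.8, 78.6, 107, 115 and 42.3 in CRD. The CRD libraries all lay below the CON libraries, the lowest being replicate 5, and the difference was -0.66 ± 0.26 (adjusted p = 0.664). Acat2 stood at -0.61 (adjusted p = 0.681) and Mvk at -0.43. The same replicate 5 had the lowest mean of log2(FPKM + 1) over sterol enzymes of all gut libraries, 4.05. Of 18 sterol enzymes 13 were lower in CRD at both ages. Immune marker sums did not overlap at 8 weeks, at 2468 to 3286 FPKM in CRD and 894 to 2095 in CON, with CRD the higher where at 18 months it had the lower range. Their part was not tested.

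Scd1 in the colon varied widely within groups. It had 61.9, 28.9, 56.4, 11.6 and 20.2 FPKM in CON and 21.98, 12.8, 10.8 and 16.4 in CRD at 18 months, and 35.1, 17.4, 20.8 and 17.7 in CON and 48.2, 55.8, 21.8, 83.4 and 15.8 in CRD at 8 weeks. All 4 groups overlapped. Summed fat tissue markers, in the same order of libraries, were 577, 143, 484, 56.03 and 53.3 FPKM and 125, 116, 91.9 and 158 FPKM at 18 months, and 356, 77.4, 119 and 79.96 FPKM and 259, 252, 159, 595 and 53.1 FPKM at 8 weeks. The libraries highest in Scd1 were mostly those highest in fat tissue markers, of which 9 to 10 of 10 averaged at least 0.5 FPKM in each colon group. Across 18 libraries Scd1 followed the marker score with a Pearson r of 0.89 and a Spearman rho of 0.85, and Fasn with 0.71 and 0.65, as a description of libraries that share their tissue. The effects of CRD on Scd1 at the 2 ages differed by -1.73 ± 0.68 (adjusted p = 0.379), and by -1.07 with the marker score as a covariate.

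In the hippocampus no member had an unadjusted p under 0.05 at 18 months, where the smallest adjusted p was 0.812 and Gpam, for one, stood at -0.19 (95% interval -0.42 to 0.04). At 8 weeks sterol enzymes lay above CON, 12 of 18, with a median of 0.15 against -0.05 over all genes. Ebp had 9.38, 8.65, 8.94, 8.31 and 8.54 FPKM in CON and 12.3, 12.02, 11.53, 10.6 and 11 in CRD, with no overlap, at 0.36 ± 0.08 (adjusted p = 0.167). Fdps had 45.4, 38.8, 42.5, 43.96 and 42.9 FPKM in CON and 50.2, 68.1, 50.6, 49.7 and 49.4 in CRD, again with no overlap, at 0.31 ± 0.09. Fdft1, with 28.5, 22.1, 23.7, 25.5 and 26.3 FPKM and 34.2, 28.5, 31.4, 31.5 and 28.9 FPKM, touched at one value and stood at 0.29 ± 0.08. All 3 shared the adjusted p of 0.167, and 18.3% of the exon bases of Fdft1 overlap those of Ctsb on the other strand while the strand of counting was not stated.

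The low-Ttr libraries are among those behind these values. Replicate 2 of the 8-week CRD group had 68.1 FPKM of Fdps and 51.0 of Pmvk, the highest of its group, but 30.5 of Fads2, 145 of Scd2, 30.2 of Hmgcs1, 17.1 of Acly and 1.72 of Idi1, the lowest. Without the 4 libraries Ebp stood at 0.37 (adjusted p = 0.388), and the median over all members moved from -0.02 to 0.08. What sets these libraries apart was not tested.

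In the hypothalamus at 18 months the members with the smallest p lay below CON. Sc5d had 25.5, 24.5, 25.5 and 23.6 FPKM in CON and 22.3, 22.9, 21.3, 22.8 and 20.7 in CRD, with no overlap, at -0.16 ± 0.05 (adjusted p = 0.217). Me1 had 48.6, 50.03, 46.8 and 48.3 FPKM in CON and 39.5, 37.02, 34.3, 44.9 and 44.2 in CRD, also apart, at -0.28 ± 0.10 (adjusted p = 0.269). Fads1 had 154, 151, 118 and 145 FPKM and 111, 96.9, 102, 127 and 126 FPKM, overlapping, at -0.33 ± 0.12. Of 6 desaturases and elongases 5 were lower, with a median of -0.27 against 0.03 over all genes, among them Scd1 at -0.45 ± 0.18 (adjusted p = 0.325).

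Astrocyte markers, of which 8 of 8 averaged at least 0.5 FPKM in each hypothalamus group, moved with these genes. They summed to 1696 to 1956 FPKM in 18-month CON and 1378 to 1782 in 18-month CRD libraries, and to 1260 to 1834 and 1299 to 1645 FPKM in the 8-week groups. Across the 19 hypothalamus libraries the marker score went with Me1 (r = 0.89, rho = 0.89), Fads1 (0.85, 0.85), Scd2 (0.82, 0.78), Scd1 (0.80, 0.78) and Fads2 (0.76, 0.77), and against Dhcr7 (-0.70, -0.67). These points share their libraries, and the part of astrocyte RNA in the differences was not tested. At 8 weeks a single member, Mvd at -0.20, had an unadjusted p under 0.05, and Scd1 stood at -0.10 (95% interval -0.44 to 0.23).

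**Figure D5:**
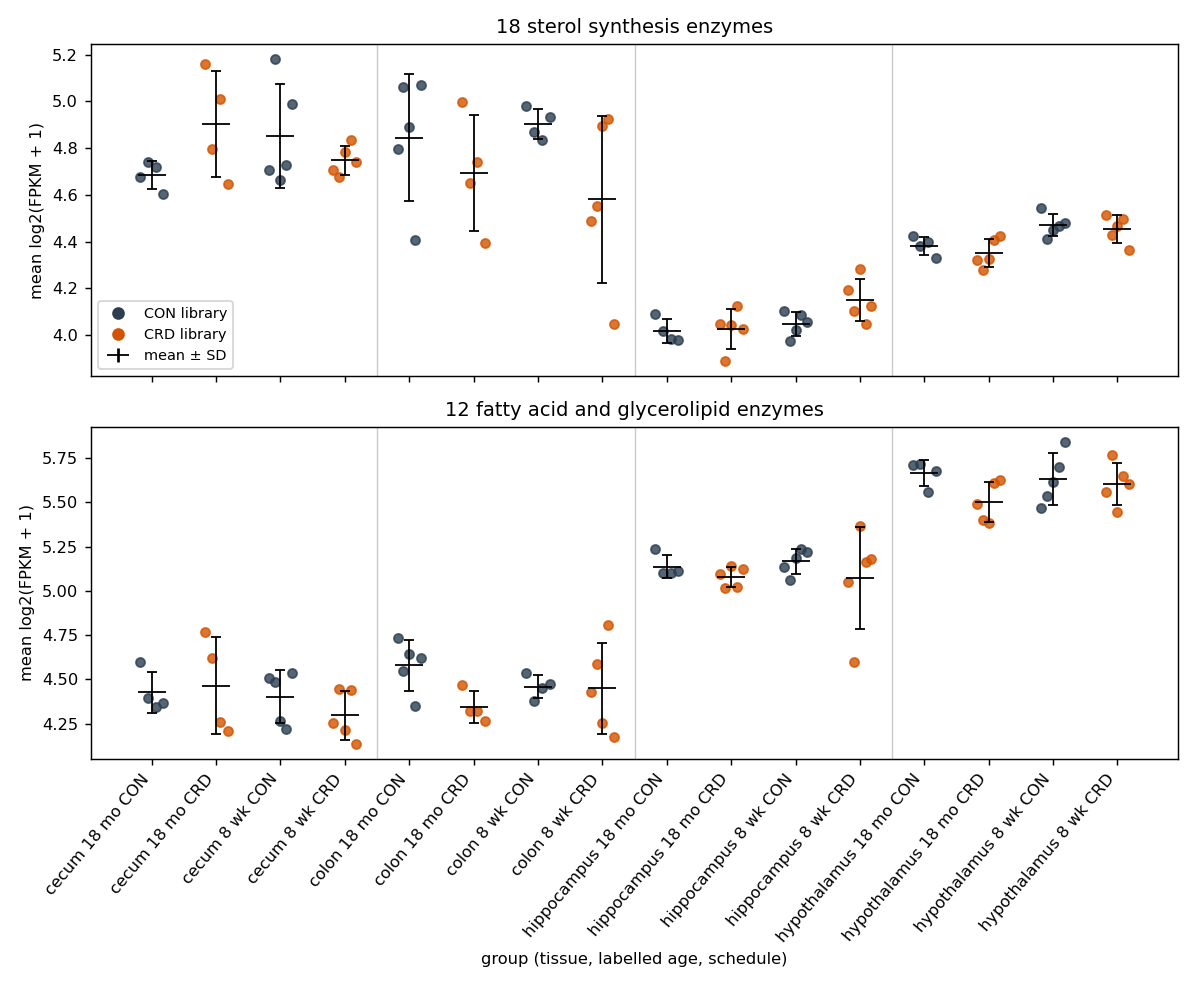
Mean log2(FPKM + 1) over the 18 sterol enzymes (one panel) and over the 12 fatty acid and glycerolipid enzymes (the other) in each library (points), by group, with mean ± SD as bars. Gut groups average 4.58 to 4.90 for sterol enzymes and hippocampus groups 4.02 to 4.15, whereas fatty acid enzymes are highest in the hypothalamus, at 5.50 to 5.67.

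Age was compared within each schedule, as 18 months against 8 weeks. In the cecum of CON mice 1 member was called, against 1.51% of all genes (0.706% higher). This was Gpam, at 16.04, 19.5, 8.31 and 14.5 FPKM at 18 months and 4.71, 4.10, 3.73, 5.15 and 4.28 FPKM at 8 weeks. The groups did not overlap, and the difference was 1.48 ± 0.26 (adjusted p = 0.00916). Without replicate 1 of the 18-month CON group it was 1.42 (adjusted p = 0.0538). Next in order were Pmvk at -0.36 (adjusted p = 0.0578) and Acat2 at -0.45 (adjusted p = 0.0917). The same 18-month CON libraries serve in the CRD comparison at 18 months. For Gpam, Pmvk and Acat2 the differences in both comparisons are therefore not independent. In CRD mice no member was called (0.771% of all genes), and 10 of 36 had an unadjusted p under 0.05, against 17.4% of all genes, led by Fads1 at 0.71 and Dhcr7 at 0.57, both with an adjusted p of 0.0650.

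The colon had no called member in either schedule, against 0.981% of all genes in CON and 0.377% in CRD, with 2 and 3 members at an unadjusted p under 0.05, against 16.5% and 9.98% of all genes. The 36 members thus held no larger a share than all genes. In CON these were Acaca at 0.29 and Gpam at 0.31, the latter in the same direction as in the cecum but with an adjusted p of 0.245. In CRD they were Scd1 at -1.29 ± 0.48 (adjusted p = 0.333), Elovl5 at -0.25 and Insig1 at 0.71. Scd1 passed at -0.84 (adjusted p = 0.0456) once the fat tissue marker score was a covariate. The hippocampus had none called either, against 0.468% and 0.769%, with 4 and 6 members at an unadjusted p under 0.05, against 17.6% and 9.49% of all genes. The smallest adjusted p there was that of Elovl6 in CON (-0.30, adjusted p = 0.0766), followed by the X-linked Ebp at 0.23. Both passed when the low-Ttr libraries were left out, at -0.30 (adjusted p = 0.0165) and 0.23 (adjusted p = 0.0431). Those libraries are all CRD, so the CON differences were the same with and without them, and what fell was the fitted SE, for Ebp from 0.081 to 0.064. In CRD it was Mvd, at -0.32 (adjusted p = 0.128).

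Several members were lower at 18 months in the hypothalamus, the tissue with the largest share of all genes called with age. In CON mice 2 were called, both lower, against 6.21% of all genes lower and 9.95% in either direction. Dhcr7 had 14.8, 15.2, 14.98 and 13.8 FPKM at 18 months and 20.6, 18.3, 19.6, 19.4 and 17.1 FPKM at 8 weeks, with no overlap, at -0.35 ± 0.07 (adjusted p = 0.0125). Elovl6 had 8.76, 8.25, 9.54 and 9.74 FPKM and 10.1, 12.1, 10.8, 11.3 and 9.50 FPKM, overlapping, at -0.22 ± 0.07 (adjusted p = 0.0443). Tm7sf2 missed at -0.24 (adjusted p = 0.0530). The share called is about that of all genes.

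In CRD mice 6 members were called in the hypothalamus, all lower at 18 months, against 7.49% of all genes lower and 12.3% in either direction. Of these 5 were enzymes from squalene to cholesterol. Sc5d had 22.3, 22.9, 21.3, 22.8 and 20.7 FPKM at 18 months and 26.04, 27.1, 25.1, 24.4 and 26.6 FPKM at 8 weeks, with no overlap, at -0.22 ± 0.04 (adjusted p = 0.00632). In CON it stood at -0.04 ± 0.05 (adjusted p = 0.598), and the difference between the schedules, -0.18 ± 0.06, was not called. Tm7sf2 had 8.35, 9.53, 10.3, 10.1 and 11.4 FPKM and 12.1, 11.3, 13.7, 12.7 and 11.98 FPKM, overlapping by a narrow margin, at -0.29 ± 0.07 (adjusted p = 0.0236). Lss had 6.17, 6.24, 6.47, 5.09 and 4.85 FPKM and 6.25, 7.40, 7.02, 7.37 and 8.02 FPKM, overlapping, at -0.28 ± 0.09 (adjusted p = 0.0429).

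Cyp51 had 17.8, 16, 17.8, 19.6 and 21.1 FPKM at 18 months and 24.3, 23.6, 20.4, 21.5 and 19.99 FPKM at 8 weeks, at -0.24 ± 0.07 (adjusted p = 0.0364). Msmo1 had 67.7, 60.8, 64.8, 72.2 and 78.1 FPKM and 83.02, 86.1, 76.7, 76.1 and 73.6 FPKM, at -0.20 ± 0.07 (adjusted p = 0.0498). Both pairs of groups overlapped. Elovl6 had 9.27, 9.03, 9.24, 9.05 and 9.58 FPKM and 10.6, 11.9, 10.8, 10 and 10.9 FPKM, which did not, at -0.21 ± 0.06 (adjusted p = 0.0407). Dhcr7 narrowly missed the threshold at -0.21 (adjusted p = 0.0506). Over the members 16 of 36 were lower at 18 months in both schedules, 10 of them sterol enzymes. Another 2 were higher in both, and 18 had opposite signs. Of all genes 42.4% were higher at 18 months in CON and 44.1% in CRD. Median-of-ratios scaling called 3 members in CRD and 1 in CON. Leaving out single libraries moved the CRD count from 6 down to 1 (without 18-month CRD replicate 4), 2 (without 8-week CRD replicate 2, 3 or 5) or 3 (without 18-month CRD replicate 1 or 2), and the CON count between 1 and 5 (5 without 8-week CON replicate 5). Median-of-ratios scaling also turned the split of all called genes, among 14437 tested. It went from 539 higher and 897 lower to 932 and 803 in CON, and from 701 and 1081 to 1054 and 1079 in CRD.

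Immune and astrocyte markers moved with age in the hypothalamus. Of 10 immune markers 6 to 8 averaged at least 0.5 FPKM in each group. They summed to 56.9 to 72.6 FPKM at 18 months and 16.1 to 42.2 FPKM at 8 weeks in CON, with no overlap, and to 47.2 to 75.1 and 14.9 to 47.3 FPKM in CRD, which overlapped by a narrow margin. Astrocyte markers, whose sums are given above, had mean log2 scores of 7.15 and 6.91 in CON and 6.91 and 6.85 in CRD, and Dhcr7 was the member with the lowest correlation with that score. Of the pituitary markers, Pomc ran from 25.3 to 1737 FPKM (median 42.9) in 8-week CRD libraries and from 14.7 to 54.8 FPKM in 18-month CRD libraries. Gh reached 126 and 11.4 FPKM in these groups, and Prl 205 and 31.4 FPKM. Prl also reached 144 FPKM in 18-month CON libraries. The part of these marker lists in the age differences was not tested.

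Within groups, pairwise correlations of sterol enzymes were higher in gut than in brain libraries. Over deviations from group means, the median correlation between pairs of sterol enzymes was 0.54 in the cecum and 0.63 in the colon (n = 18 libraries each), and 0.18 in hippocampus against 0.16 in hypothalamus libraries (n = 19 each). Their median SD within groups was 0.23, 0.32, 0.15 and 0.12 on the log2 scale. For fatty acid and glycerolipid enzymes the medians were 0.37, 0.04, 0.60 and 0.52, so the order of tissues was not the same. These correlations describe libraries that share depth and tissue make-up, and the differences between tissues were not tested.

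Neighbouring pathways were counted for comparison. In brain against gut 51% of all genes were called higher and 41.7% lower, 92.8% in either direction, so most of any list is called. Of genes of sterol export, storage and oxysterols 4 were higher and 7 lower of 14 tested in brain against gut, led by Cyp46a1, the neuronal cholesterol hydroxylase, at 5.44. Of other lipid synthesis genes 7 were higher and 11 lower of 18, led by the acyl-CoA synthetase Acsl6 at 5.34. Of genes listed under fatty acid oxidation and ketogenesis 2 were higher and 11 lower of 13, with Cpt2, a carnitine palmitoyltransferase, at -2.44. With age in the hypothalamus, 5 of 13 genes of this list were called higher in CON and 2 in CRD. Of all genes 3.73% and 4.86% were. The list also counts Angptl4, which is not itself an oxidation enzyme, at 0.55 and 0.32. Npc2, a lysosomal sterol carrier, was higher by 0.38 in CON and 0.30 in CRD, the single export gene called there. In the cecum of CON mice, Cyp27a1, a sterol hydroxylase, at 0.59 and Acacb, the mitochondrial acetyl-CoA carboxylase, at 0.63 were higher at 18 months beside Gpam.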

How the data were processed

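RNA was extracted and mRNA selected with oligo(dT) beads, with cDNA primed by random hexamers, per the labels' protocols. The authors deposited FPKM values to 2 decimals, with HISAT2, Bowtie2, RSEM and DESeq2 as tools and GRCm38 as build, per the submitters' processing notes. For versions, settings and strandedness nothing is given in the sources used here. Because FPKM hold no read counts, depth is unknown and no counting interval was computed.

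Values were taken as log2(FPKM + 1), a scale that understates changes of low genes. Genes averaging 0.5 FPKM or more in a tissue were fitted with limma 3.58.1 (R 4.3.3, intensity trend), with 1 model of 4 groups per tissue. A further model of the 8 CON groups compared tissues. It treated libraries as independent, although tissues may come from the same mice. Calls required an adjusted p (Benjamini-Hochberg, over all tested genes) below 0.05, and errors are standard errors unless called SD. The procedure was also run on simulated data with independent noise between libraries, and no outcome of that run is used here. Marker and pathway scores are mean log2(FPKM + 1). Coordinates come from GENCODE on GRCm38, counted from 1.

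The members and lists were chosen with earlier results of these data known. Values in every library are given for members called in a comparison, at most 6 by smallest p, or else for some of the 3 with the smallest p; of other lists at most 3 genes per comparison. Scd1 in the colon and hypothalamus and the genes whose ranges are printed between tissues were chosen after their values were seen. Replicate numbers may pair cecum and colon libraries, as all 17 same-numbered pairs correlated above 0.1 in their deviations from group means (0.139 to 0.599). Differently numbered libraries were not correlated for comparison, so pairing is not shown. Alternatives were another pseudocount (0.1), no filter or a filter at 2 FPKM, median-of-ratios scaling, a replicate block, CRD libraries, marker covariates, and leaving out libraries. Figures were drawn with matplotlib 3.10.9.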

Additional observations from a re-analysis of the deposited data

Results flagged for a closer look

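In 3 of 96 groups of 4 to 5 libraries examined, a single library stood apart from the rest of its group by Dixon's criterion, and chance gives about 1 in 20. All were in the hippocampus. Fdps reached 68.1 FPKM in 8-week CRD replicate 2, where its group otherwise spanned 49.4 to 50.6 FPKM. That library is one of the 4 with little Ttr. Fdps reached 46.2 FPKM in 18-month CON replicate 3, and the mean of log2(FPKM + 1) over fatty acid and glycerolipid enzymes reached 5.24 in 18-month CON replicate 1, the highest of its group in both cases.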

How the results depend on the processing

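Under alternatives that did not leave out single libraries, 140 counts of called members stayed within 1.5 times the count reported and 8 did not. The 140 include every count of 0 that stayed 0, such as those for CRD against CON in all 4 tissues. The 8 moved to 10 from 16 for cecum against colon (CRD libraries), to 2 from 1 for age in CON cecum and to 1 from 0 in CRD cecum (median of ratios), to 1 from 0 for age in CRD colon (fat marker covariate), to 2 from 0 for age in CON hippocampus (without low-Ttr libraries), to 1 from 2 for age in CON hypothalamus (no filter, or median of ratios) and to 3 from 6 in CRD hypothalamus (median of ratios). The 8 single-gene reversals were Acly for brain against gut (-0.0083, median of ratios) and, with CRD libraries, Insig1 for brain against gut (0.096), Scap for hippocampus against hypothalamus (-0.058), and Cyp51 (0.142), Ebp (0.075), Fdft1 (0.094), Fdps (0.239) and Tm7sf2 (0.116) for cecum against colon. The median over members moved to -0.35 for brain against gut (median of ratios), to 0.055 for cecum against colon (CRD libraries), and without low-Ttr libraries to -0.12 for age in CRD hippocampus, 0.08 for CRD at 8 weeks and -0.11 for the difference of effects. Leaving out each library gave 30 to 33 called members for brain against gut, 13 to 20 for cecum against colon, 32 to 34 for hippocampus against hypothalamus, 0 to 2 for age in CON cecum, 0 to 1 in CRD cecum (1 without 8-week CON replicate 1 or CRD replicate 5), 0 to 1 for CRD in the cecum at 18 months (1 without CRD replicate 3), 0 to 1 for age in CON hippocampus (1 without 8-week CRD replicate 2), 1 to 5 in CON hypothalamus and 1 to 7 in CRD hypothalamus, and 0 throughout elsewhere. The replicate block gave 17 calls for cecum against colon, 34 for hippocampus against hypothalamus, and 3 and 7 for age in CON and CRD hypothalamus. The numbers are not shown to pair libraries in any tissues, as differently numbered libraries were not correlated for comparison. All 17 gut pairs and 14 of 19 brain pairs correlated above 0.1, and fewer within tissues. Where a cause is not named by the setting itself it was not tested. FPKM give no depth, so the precision of single values rests on the 4 to 5 libraries of a group.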
